A study of Mus musculus with 12 samples.

Results

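The nuclear genes for the subunits of the mitochondrial respiratory chain and ATP synthase were described in regulatory T cells (Treg) of 2 genotypes, before and after activation. Members were the array probes whose gene name began with Nduf followed by a, b, c, s or v, with Uqcr, with Cox4 to Cox8 or with Atp5, or was Sdha, Sdhb, Sdhc or Sdhd. A probe was kept when it was well above background, by the scanner software's own flag, on all 3 arrays of at least 1 group. Of 55681 distinct probes, 136 matched by name and 130 passed, and they stood for 90 of 93 matching genes among 18545 genes tested. Complex I held 45 genes, complex II 4, complex III 8, complex IV 15 and complex V 18. The 3 genes not measured were Cox7b2, Cox8b and Cox8c, tissue-restricted isoforms of complex IV whose probes were well above background on at most 1 array.

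The respiratory chain moves electrons from NADH and succinate through complexes I and II, ubiquinone, complex III and cytochrome c to oxygen at complex IV, and the proton gradient that 3 of its complexes build drives ATP synthase, also called complex V. Each complex except complex II combines subunits from nuclear genes with a few encoded in mitochondrial DNA, and accessory subunits surround a conserved catalytic core. Treg, the CD4 T cells that hold back immune responses, are known to rely on oxidative metabolism more than conventional effector T cells do. The name rule also took in genes outside the usual structural subunits. These were the complex I assembly factors Ndufaf1 to Ndufaf7, the supercomplex factor Cox7a2l, and Atp5s and Atp5sl, placed in complex V by name only. They also included the pseudogene Atp5c1-ps and the isoforms Ndufa4l2, Cox4i2, Cox6a2, Cox6b2 and Cox7a1. By role, 14 structural subunits were classed as core and 60 as accessory, beside 10 assembly or other factors, 5 isoforms and 1 pseudogene. The core class held all 4 subunits of complex II, and Uqcrc1, Uqcrc2, Cox4i1, Cox5a and Cox5b were classed as accessory. Ndufa4, named for complex I and kept there, is now counted as a subunit of complex IV.

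Total RNA of Treg sorted from spleens of female C57BL/6 mice was read on 12 single-colour arrays, 3 in each of 4 groups. WT cells (CD83 WT, mice of 9 weeks) and KO cells (CD83cKO, a conditional knockout of the surface protein CD83) were either not activated (0 h) or activated for 3 h with antibodies to CD3 and CD28. KO arrays 1 and 2 of each time came from mice of 10 weeks, and KO array 3 of each time is labelled 21 weeks. The design lists 6 mice for the 12 arrays, the labels do not link arrays to mice, and no Cre driver is named. P-values therefore treat arrays as independent, and part of the spread they measure may be technical. The 6 KO arrays shared 1 slide, while the WT 0 h arrays and the WT 3 h arrays each had a slide of their own. Genotype and slide, and likewise WT activation and slide, cannot be told apart, whereas the KO arrays of both times share a slide.

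The labels were checked against known genes. Levels are log2 intensities relative to the 75th percentile of each array. Cd83 was at 2.17 to 2.39 on the WT 0 h arrays, 0.23 to 0.75 on the KO 0 h arrays, 3.65 to 4.21 on the WT 3 h arrays and 1.06 to 1.92 on the KO 3 h arrays, with no overlap between genotypes at either time. Foxp3, the defining factor of Treg, has 1 probe, which was well above background on 6 of 12 arrays, all KO, and on no WT array. Il2ra, Ctla4 and Ikzf2, also typical of Treg, were well above background on all 12 arrays, with their lowest level at each time on the 21-week arrays. All 10 T cell markers were tested, and their mean level relative to the WT 0 h mean was -1.83 to -0.28 on the KO 0 h arrays and -2.67 to -0.56 on the KO 3 h arrays, lowest on the 21-week arrays. On the 21-week arrays the 7 plasma cell markers stood 5.33 (0 h) and 5.77 (3 h) above the WT 0 h mean, and the 3 tested of 8 neutrophil markers 7.07 and 5.69. The counts and medians of each comparison are therefore given without the 21-week arrays as well.

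Activation of WT Treg was followed by lower levels of respiratory chain transcripts. By limma with Benjamini-Hochberg adjustment over all genes, at an adjusted p under 0.05, 24 of 90 members fell and 2 rose. The falls were 26.7% of the members, against 16.6% of all genes tested, and the rises 2.22%, against 13.3% of all genes, of which 29.9% were called in either direction. The median difference of the members was -0.46 on the log2 scale, against -0.14 over all genes, and 79 of the 90 differences were below 0. The 3 WT arrays at 3 h lay entirely below those at 0 h for 70 members and entirely above for 4. Over all genes these non-overlapping shares were 39.4% lower and 29.0% higher. In these bulk samples, fewer cells of a type and less RNA per cell cannot be told apart.

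**Figure D1:**
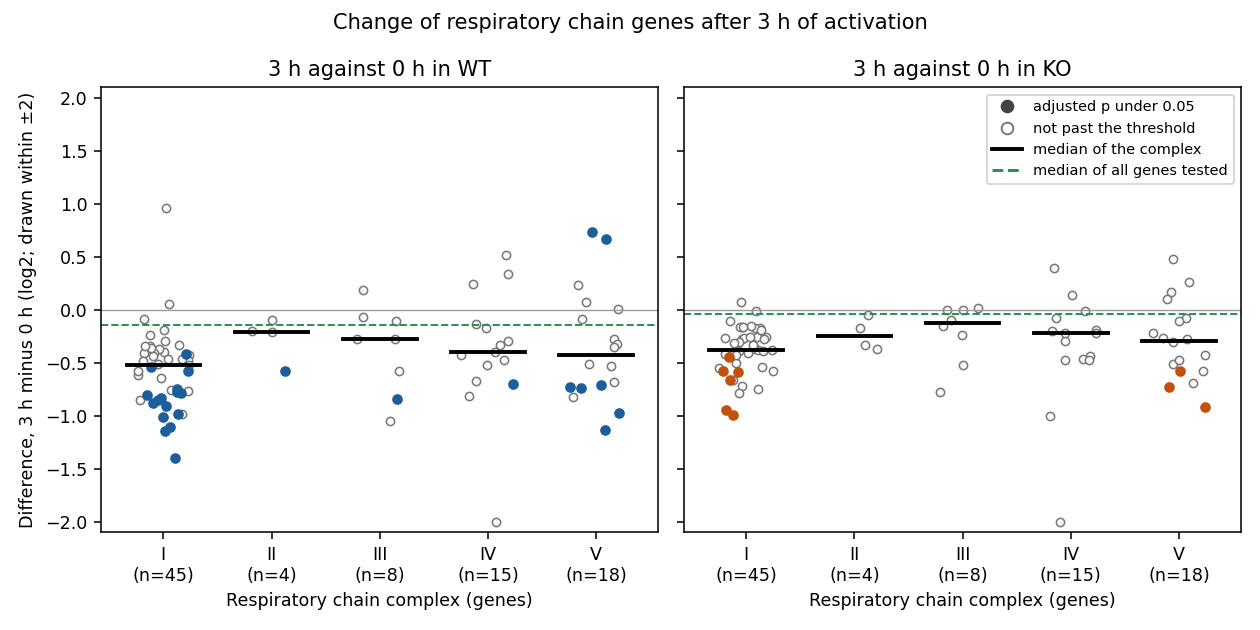
Difference between 3 h and 0 h (vertical axis, log2, drawn within ±2) for each of the 90 respiratory chain genes, by complex, in WT (left) and KO (right) Treg. Filled points passed an adjusted p of 0.05, open points did not, black bars mark the median of each complex and the dashed line the median of all genes tested. In WT, 16 of 45 complex I genes are filled below 0, and 2 complex V genes are filled above 0.

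Complex I, which oxidises NADH and is the largest complex of the chain, held 16 of the 24 falls. Of its 45 members 35.6% fell, with a median of -0.52, and none rose. For 41 of the 45 the WT 3 h arrays lay below all WT 0 h arrays. Ndufb3, an accessory subunit of the membrane arm, had the lowest difference of the complex. Its level was 2.12, 2.07 and 2.04 on the WT 0 h arrays and 0.77, 0.68 and 0.56 on the WT 3 h arrays. Every activated array was lower than every non-activated one by more than the spread within either group. The difference was -1.40 ± 0.243 (SE), a 2.65-fold fall, with an adjusted p of 0.00261 (limma).

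Other accessory subunits of complex I fell by less. Ndufa7 was at 2.78, 2.67 and 2.71 at 0 h and at 1.61, 1.57 and 1.56 at 3 h, a difference of -1.14 ± 0.234 (limma adjusted p = 0.0058). The groups did not overlap, and the arrays of each were close together. Ndufc1 (-1.11 ± 0.368), Ndufb10 (-1.01 ± 0.316), Ndufc2 (-0.98 ± 0.269), Ndufb4 (-0.91 ± 0.244) and Ndufa13 (-0.88 ± 0.288), also known as GRIM-19, fell with limma adjusted p-values of 0.0461, 0.0368, 0.0213, 0.0196 and 0.0435. Ndufa3, Ndufa6, Ndufa10 and Ndufb5 fell by smaller amounts, between -0.79 and -0.54.

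Among the catalytic subunits of complex I, the differences named here did not pass the test. A core subunit of the complex that is not named here did fall. Ndufs7, which carries an iron-sulfur cluster, had a difference of -0.76 (limma adjusted p = 0.0565), and Ndufv1, the flavin-binding subunit, one of -0.46 (0.0927). Ndufs1, the largest iron-sulfur subunit, had a difference of 0.05, with WT arrays at 1.36 to 1.47 at 0 h and 1.41 to 1.53 at 3 h, which overlap. It was the highest difference of the complex apart from Ndufa4l2, a paralogue of Ndufa4 known from hypoxia, which was not well above background on any of the 6 WT arrays.

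The assembly factors of complex I help to build it and are no part of the finished enzyme. Among the members, 4 of the 7 with names beginning Ndufaf fell. Ndufaf1 was at -1.57, -1.71 and -1.63 at 0 h and at -2.43, -2.43 and -2.54 at 3 h, a difference of -0.83 ± 0.172 (limma adjusted p = 0.00618). Ndufaf3 fell by 0.85 (0.00939), Ndufaf4 by 0.80 (0.0373) and Ndufaf6 by 0.78 (0.01). Ndufaf2 (-0.41, 0.272), Ndufaf5 (-0.34, 0.114) and Ndufaf7 (-0.36, 0.0845) did not pass. Of the 10 assembly or other factors 4 fell and none rose, with a median of -0.49. The 60 accessory subunits had a median of -0.52, with 17 falls and 1 rise, and the 14 core subunits a median of -0.23, with 2 falls and 1 rise. The difference between these classes was not tested.

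Complexes II, III and IV each held 1 fall. This was 12.5% of the members of complex III and 6.67% of those of complex IV, below the 16.6% of all genes that fell. In complex II it was 1 of 4 members, a higher share that rests on 1 gene. The falls are therefore described as single genes and not read as results of these complexes. Sdhc, a membrane anchor of succinate dehydrogenase, was at 0.23, 0.24 and 0.27 at 0 h and -0.33, -0.33 and -0.34 at 3 h, and fell by 0.58 (limma adjusted p = 0.0203). The other subunits of complex II, the flavoprotein Sdha (-0.10), the iron-sulfur protein Sdhb (-0.21) and the other anchor Sdhd (-0.20), did not pass. In complex III, the small subunit Uqcr10 fell by 0.84 (0.00902), from 2.79, 2.67 and 2.58 to 1.98, 1.73 and 1.81. Uqcrc1 (0.19) and Uqcrc2 (-0.11), known as core proteins but classed here as accessory, did not pass. Nor did the Rieske iron-sulfur protein Uqcrfs1 (-0.07) or Uqcr11 (-1.05 ± 0.397, 0.0712), the lowest of the complex. Medians were -0.20 for complex II and -0.28 for complex III.

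In complex IV, cytochrome c oxidase, the median was -0.40, and Cox7b, a small nuclear-encoded subunit, fell by 0.70 (limma adjusted p = 0.0476). Cox7b was at 3.19, 3.06 and 3.00 at 0 h and 2.60, 2.27 and 2.29 at 3 h, without overlap. The subunits Cox4i1 (-0.29), Cox5a (-0.17) and Cox5b (-0.13) and the common isoform Cox6a1 (-0.43) did not pass. Cox6a2, the isoform known from heart and skeletal muscle, was at -3.80, -4.06 and -4.20 on the WT 0 h arrays, all well above background. It was at -8.97, -9.26 and -6.99 at 3 h, where only 1 of the 3 arrays was well above background, so the size of its difference is not given. Cox6b2, the isoform known from testis, had the highest difference of the complex, 0.52, and was not called.

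Complex V held changes in both directions. Atp5g2, one of 3 genes for the ring subunit c, was at 5.34, 4.73 and 4.72 at 0 h and 4.0, 3.75 and 3.63 at 3 h, and fell by 1.13 ± 0.237 (limma adjusted p = 0.00643). The groups did not overlap, and WT 0 h array 1 was the highest. The other genes for this subunit, Atp5g1 (-0.32) and Atp5g3 (-0.09), did not pass. The central stalk subunits Atp5e (-0.97 ± 0.30, adjusted p = 0.035) and Atp5c1 (-0.71, 0.0109), the peripheral stalk subunit Atp5j (-0.74, 0.0238) and the pseudogene Atp5c1-ps (-0.73, 0.00305) fell as well. Atp5c1 and its pseudogene are near copies, so their signals are not independent.

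The 2 rises were also subunits of complex V. Atp5d, the delta subunit of the central stalk, was at 2.49, 2.43 and 2.45 at 0 h and at 3.15, 3.05 and 3.18 at 3 h, a rise of 0.67 ± 0.192 (limma adjusted p = 0.0253). The groups were each narrow and did not overlap. Atp5b, the catalytic beta subunit, was at 3.04, 3.81 and 3.79 at 0 h and at 4.33, 4.27 and 4.21 at 3 h, a rise of 0.73 ± 0.220 (0.032). WT 0 h array 1 stood low, the difference without it was 0.47, and neither rise was then called. On the same array Atp5o, Atp5g3, Ndufa8, Ndufv2 and Cox6b1 were also the lowest of the WT 0 h arrays. Against 1.92 and 1.91 on WT 0 h arrays 2 and 3, however, the median level of all members was 2.07 on array 1. The repeated spots of the Uqcrc2 probe had an SD of 0.119 there, against 0.0276 to 0.0486 on the other arrays, and the part of this in the Atp5b value was not tested. Atp5a1, the alpha subunit that forms the catalytic head with beta, had a difference of 0.01 and stayed between 2.23 and 2.69 on all 12 arrays.

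**Figure D2:**
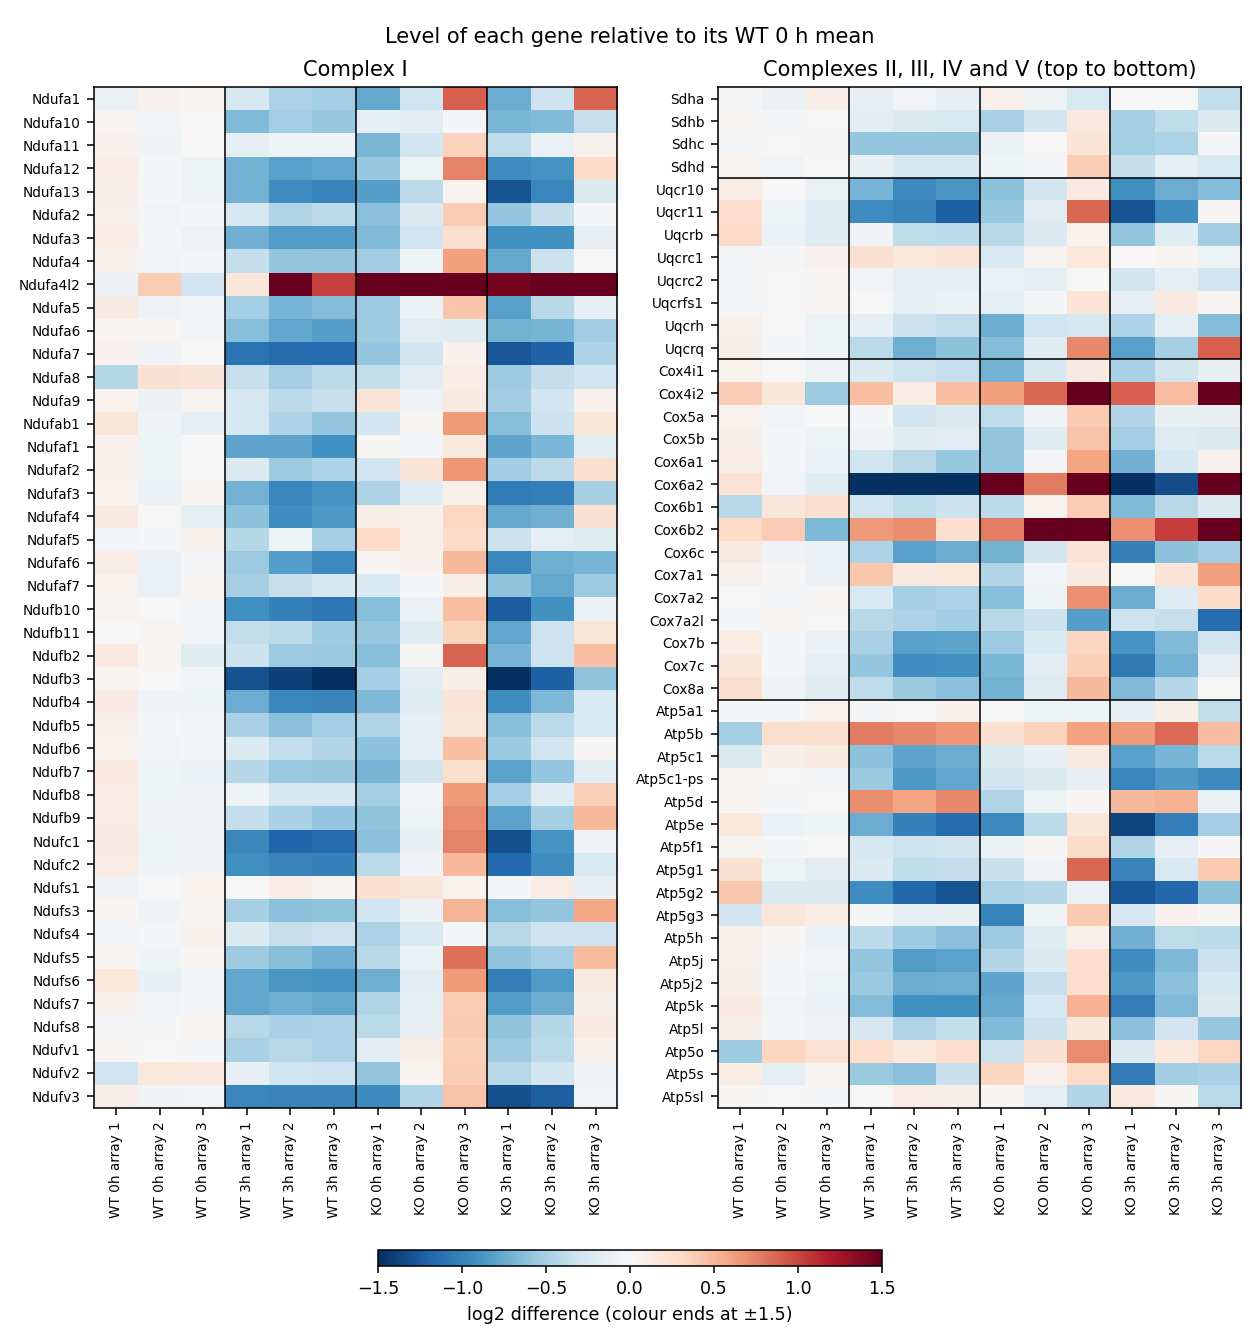
Level of 89 of the 90 respiratory chain genes on each of the 12 arrays as the log2 difference from that gene's WT 0 h mean (colour, ending at ±1.5), with complex I on the left and complexes II to V on the right. Blue marks lower and red higher levels. The 3 WT 3 h columns are blue for most genes, Atp5b and Atp5d are red in those columns, and the third KO column of each time, from 21-week mice, is redder than the other 2.

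The number of falls moved more than their size, and the share of all genes called lower moved too. Without the 21-week KO arrays, which enter the WT comparison only through the shared estimate of spread, 55 members fell (61.1%, against 31.6% of all genes) and 3 were called higher (3.33%, against 24.2%). The third of these was Ndufa4l2, which no WT array measured well above background, and nothing is read from it. In that fit 35 of the 45 complex I members fell. With the age of 21 weeks as a term beside the 4 groups, an alternative chosen after seeing the data, 51 fell, against 28.0% of all genes, and 2 rose, against 22.3%. Ndufs7 and Ndufv1 were among those 51. In a fit of the WT arrays alone 64 members fell, against 35.0% of all genes, where 25.7% of all genes rose. Leaving out any single WT array gave 11 to 13 falls, without KO 0 h array 2 there were 16, and without KO 3 h array 3 there were 39. The shares of all genes called in these single-array fits are not given, so these counts are not read as a result about the members. The members' median stayed between -0.50 and -0.43 when single arrays were left out. Rises were lost without WT 0 h array 1 or any WT 3 h array.

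Markers of other cells moved in the same comparison. The mean of the 12 monocyte and macrophage markers was -0.40 to 0.43 on the WT 0 h arrays, relative to their mean, and -2.27 to -1.79 at 3 h, and 10 of the 12 fell by the same limma test. The 10 T cell markers were at -0.08 to 0.09 at 0 h and -0.65 to -0.54 at 3 h, and 1 of them fell. The 6 tested of 8 NK cell markers were at -0.14 to 0.14 and then -1.73 to -1.28, and 3 fell. The 7 tested of 8 dendritic cell markers were at -0.30 to 0.30 and then -1.03 to -0.77, with 3 falls and 1 rise. The mean of the 90 respiratory chain genes went from -0.04 to 0.05 at 0 h to -0.53 to -0.42 at 3 h. The part of these markers in the falls was not tested.

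**Figure D3:**
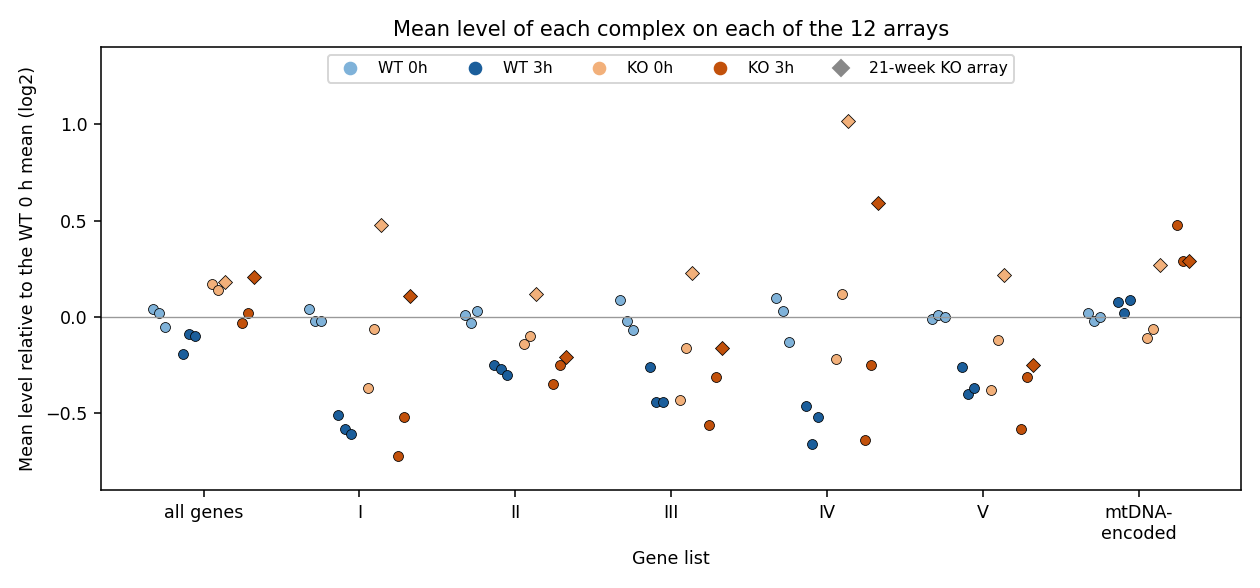
Mean level of the genes of each complex on each array, relative to the WT 0 h mean (vertical axis, log2), beside all genes tested and the 13 subunits encoded in mitochondrial DNA. Each point is 1 array and diamonds are the 21-week KO arrays. In complex I the WT 3 h arrays sit at -0.61 to -0.51, whereas the mitochondrially encoded subunits on the same arrays sit at 0.02 to 0.09.

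Probes of the same gene agreed for most members. Of 30 genes with several eligible probes, 24 had WT differences within a range of 0.3, and 4 (Atp5j, Ndufa3, Ndufv3 and Uqcrb) had probes on opposite sides of 0. The first 30 of the 60 bases of the probes for Ndufa3 and Ndufv3 are given because the value of each gene depends on which probe is read. Positions are those of the array's annotation (mm9, plus strand).
Ndufa3, chr7:3571695-3571754, used: atgcctctgctgatggaagaggccccttcc
Ndufa3, chr7:3569447-3569506, not used: cagtttgactctgtaggcagaactcctcgg
Ndufv3, chr17:31668209-31668268, used: ggtagaccccgatgttggttcccatgaatc
Ndufv3, chr17:31665148-31665207, not used: gtgccagaaggaggctcccaggtccaggag
Ndufv3, chr17:31663758-31663817, not used: aagaaaagctattgccactccctccgtcct
The used, brightest Ndufa3 probe gave -0.79 in WT activation and the other probe 0.56 ± 0.376 (limma adjusted p over all probes = 0.292). For Ndufv3, an accessory subunit with several transcript forms, the used probe gave -0.98 ± 0.385 (0.0809 over all probes), and the others gave 0.06 and 0.19. The other probe of Atp5j gave 0.43 ± 0.688. The probes of these genes that were not used were far dimmer. On WT 0 h array 1 the used Ndufa3 probe was at 3.72 and the other at -4.14. The used Ndufv3 probe was at 3.56 there and the others at -2.50 and -5.29. For Atp5j the levels were 1.71 and -6.35. Probes that the annotation places on processed copies elsewhere in the genome stood for Atp5l, Ndufb11, Uqcrh, Uqcr11 and Atp5j2, and their values are uncertain as to the gene.

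Promoter windows of 300 bases, 250 before and 50 after the annotated start, were matched by symbol for 74 of the 90 members in RefSeq (GRCm38.p6), 80 windows in all. They were searched on both strands for 4 motifs: GCGCATGCGC for NRF1, a regulator of respiratory genes, CCGGAAG for GABPA (also called NRF2), AAGATGGC for YY1 and CCAAT for NF-Y. The NRF1 letters were in 7 windows of members (8.75%), against 0.971% of all 32851 windows. The GABPA letters were in 17 (21.2%, against 8.86%), the YY1 letters in 12 (15%, against 2.75%) and the CCAAT letters in 34 (42.5%, against 37.4%). Of the 23 windows of members that fell after WT activation, 2, 3, 3 and 12 held these motifs, in the same order. A match is a description of the letters and no evidence of binding.

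The windows of 5 members are printed because they include the lowest difference among the members called (Ndufb3), a member that rose (Atp5b), a complex V subunit and an assembly factor that fell (Atp5g2 and Ndufaf1), and between them each of the 4 motifs, which are in capitals. Each runs 5′ to 3′ on the strand of the gene, from 250 bases before the start to 30 bases into the transcript, and ATTGG is CCAAT on the opposite strand.
Ndufb3, chr1:58586147-58586426, plus strand, GRCm38.p6: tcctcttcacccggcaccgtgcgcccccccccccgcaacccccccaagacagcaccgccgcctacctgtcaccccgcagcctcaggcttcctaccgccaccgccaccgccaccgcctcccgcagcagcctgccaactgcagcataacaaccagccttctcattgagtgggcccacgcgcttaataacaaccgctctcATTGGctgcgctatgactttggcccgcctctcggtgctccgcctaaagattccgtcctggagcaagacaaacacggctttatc
Atp5g2, chr15:102671018-102671297, minus strand, GRCm38.p6: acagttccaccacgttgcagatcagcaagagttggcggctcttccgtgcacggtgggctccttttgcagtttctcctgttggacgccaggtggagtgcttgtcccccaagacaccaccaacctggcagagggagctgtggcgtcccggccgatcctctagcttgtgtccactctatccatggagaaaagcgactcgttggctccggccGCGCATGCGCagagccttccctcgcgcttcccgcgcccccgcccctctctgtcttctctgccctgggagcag
Ndufaf1, chr2:119662805-119663084, minus strand, GRCm38.p6: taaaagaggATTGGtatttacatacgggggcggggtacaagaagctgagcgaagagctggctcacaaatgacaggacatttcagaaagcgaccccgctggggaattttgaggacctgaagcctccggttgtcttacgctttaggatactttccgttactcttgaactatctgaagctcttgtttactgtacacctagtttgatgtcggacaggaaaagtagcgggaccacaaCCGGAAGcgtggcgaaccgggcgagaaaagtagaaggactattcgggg
Ndufc1, chr3:51408926-51409205, minus strand, GRCm38.p6: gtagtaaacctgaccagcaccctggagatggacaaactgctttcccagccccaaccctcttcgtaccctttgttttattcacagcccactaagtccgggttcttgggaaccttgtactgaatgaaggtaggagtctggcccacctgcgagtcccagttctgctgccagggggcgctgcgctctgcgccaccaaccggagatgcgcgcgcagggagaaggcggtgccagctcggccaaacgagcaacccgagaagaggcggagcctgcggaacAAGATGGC
Atp5b, chr10:128083057-128083336, plus strand, GRCm38.p6: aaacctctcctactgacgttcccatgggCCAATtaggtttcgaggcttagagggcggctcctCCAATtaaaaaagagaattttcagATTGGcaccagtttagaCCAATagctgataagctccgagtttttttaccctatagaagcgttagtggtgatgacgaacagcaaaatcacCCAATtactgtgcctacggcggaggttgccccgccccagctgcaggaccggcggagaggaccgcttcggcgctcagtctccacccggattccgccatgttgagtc
Ndufb3 had 1 CCAAT match, beginning at position -53 from the start, and no other motif. Atp5g2 had the NRF1 letters at -42, Ndufaf1 the GABPA letters at -18 and CCAAT at -241, and Ndufc1 the YY1 letters at 23. Atp5b, which rose, had 5 CCAAT matches and none of the other motifs.

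In KO Treg, 9 of 90 members fell after activation and none rose, by limma at an adjusted p under 0.05. The falls were 10.0% of the members, against 9.79% of all genes tested, so their share was near the background. No member rose, against 7.38% of all genes. At an unadjusted p under 0.05 the counts were 20 lower and 1 higher. They are given without the share of all genes and are not read as a result about the members. The median of the members was -0.31, against -0.04 over all genes, and 81 of the 90 differences were below 0. Medians were -0.38 in complex I, -0.25 in complex II, -0.13 in complex III, -0.22 in complex IV and -0.29 in complex V. KO arrays of the 2 times did not overlap for 14 members, all lower at 3 h, and over all genes 13.5% were lower and 10.9% higher without overlap.

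Of the 9 falls, 5 were assembly or other factors. Ndufaf6 was at -3.01, -2.97 and -2.54 on the KO 0 h arrays and -4.01, -3.76 and -3.73 on the KO 3 h arrays, a difference of -0.99 ± 0.179 (limma adjusted p = 0.00618). The groups did not overlap, and array 3, of 21 weeks, was the highest at each time. Atp5s, a factor related to ATP synthase, was at -4.51, -4.76 and -4.53 at 0 h and -5.88, -5.35 and -5.32 at 3 h and fell by 0.92 ± 0.182 (0.00881). Ndufaf3 fell by 0.66 (0.0424), Ndufaf1 by 0.59 (0.0423) and Ndufaf7 by 0.58 (0.0219).

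The other falls in KO were Ndufb3, Ndufa10, Atp5c1 and Atp5c1-ps. Ndufb3 was at 1.57, 1.91 and 2.18 at 0 h and 0.50, 0.85 and 1.47 at 3 h, a difference of -0.95 ± 0.243 (limma adjusted p = 0.0257). The groups did not overlap, but the 21-week array at 3 h came near to the lowest array at 0 h. Atp5c1 fell by 0.58 (0.0401), Atp5c1-ps by 0.73 (0.00589) and Ndufa10 by 0.45, at an adjusted p that rounds to 0.05 and is below it. No member of complex II, III or IV passed: their lowest differences were in Sdhc (-0.37 ± 0.157) and Uqcr11 (-0.78 ± 0.397) for II and III, and in complex IV Cox6a2, which 2 of the 3 KO 3 h arrays measured well above background. Their highest were in Sdha (-0.05), Uqcrh (0.02) and Cox7a1 (0.39 ± 0.202), the heart and muscle isoform of Cox7a2.

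Members that rose in WT had smaller or less even values in KO. Atp5d was at 2.00, 2.38 and 2.47 on the KO 0 h arrays and at 2.94, 2.98 and 2.36 at 3 h, where the 21-week array was the low one. Its difference was 0.48 ± 0.192 with all arrays and 0.77 ± 0.132 without the 21-week ones, where it rose (limma adjusted p = 0.00229). Atp5b was at 3.78, 3.89 and 4.15 at 0 h and 4.18, 4.40 and 4.01 at 3 h, which overlap, with a difference of 0.26 ± 0.220. Atp5g2 had a difference of -0.69 ± 0.237 and was not called in KO.

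**Figure D4:**
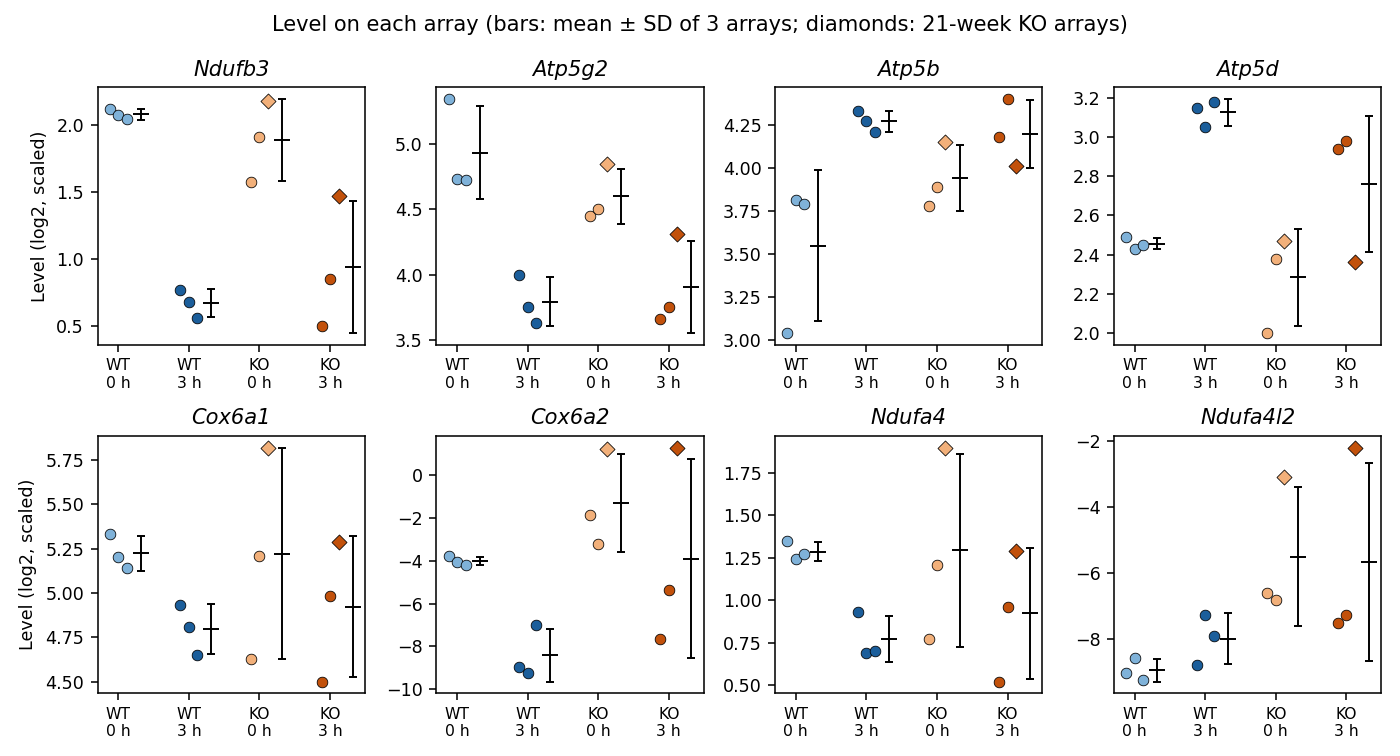
Level on each array (vertical axis, log2 intensity relative to the 75th percentile of the array, its scale differing between panels) of 8 respiratory chain genes in the 4 groups. Points are arrays, diamonds the 21-week KO arrays, and bars the mean ± SD of 3 arrays. Ndufb3 and Atp5g2 are lower and Atp5b and Atp5d higher at 3 h in WT, and Cox6a2 and Ndufa4l2 are highest on the 21-week arrays.

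The KO falls depended on the arrays used, and the share of all genes called lower did too. Without the 21-week arrays 28 members fell (31.1%, against 25.9% of all genes) and 1 rose (1.11%, against 20.3%), among them 20 of complex I, and the median was -0.30. Without KO 3 h array 3 alone 29 fell, and without KO 0 h array 3 alone 4. Without KO 0 h array 2, KO 3 h array 1 or KO 3 h array 2 there were 3, and without any single WT array 5 or 6. Without KO 0 h array 1 there were 10. The median ranged from -0.55 to -0.14. The age label is the only one that ties KO arrays of the 2 times. With the age of 21 weeks as a term, chosen after seeing the data, 32 members fell, against 20.6% of all genes, and none rose, against 17.9%, and the median was -0.31. In a fit of the KO arrays alone, which compares the times within 1 slide, no member was called, and 0.329% of all genes were called lower. With no shift of the arrays to a common percentile 22 fell, with a median of -0.61 against -0.34 over all genes. For the no-shift fit and the fits without single arrays, the shares of all genes called are not given. Those counts are therefore not read as results about the members.

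Marker lists moved in this comparison too. The 12 monocyte and macrophage markers were at 2.13 to 2.61 on the KO 0 h arrays and -0.35 to 0.78 on the KO 3 h arrays, relative to WT 0 h, and 9 of them fell by limma. Of 7 dendritic cell markers 3 fell and 1 rose, and of 6 NK cell markers 2 fell. The 7 erythroid markers were at 2.69 to 3.48 and then -1.10 to 2.74, with none called. The respiratory chain genes were at -0.34, -0.05 and 0.48 on KO 0 h arrays 1, 2 and 3, and at -0.65, -0.40 and 0.08 on the KO 3 h arrays. Array 3, of 21 weeks, was the highest at each time, and for complex IV it stood at 1.02 and 0.59. The part of the other cells in these values was not tested.

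The activation effects of the genotypes were compared directly. In both genotypes together 75 members were below 0, and 7 members were called lower in each, which is 29.2% of the WT falls and 77.8% of the KO falls. The same overlap was not counted over all genes, so these shares are not read as particular to the members. For 67 of the 90 members the difference was below 0 in WT and higher in KO, and the median of the difference of effects was 0.19, against 0.06 over all genes. No member passed for the difference of effects by limma, at an unadjusted p under 0.05 there were 0 members as well, and none of the 18545 genes was called. A fall called in WT and not in KO is therefore not shown to differ between the genotypes. Without the 21-week arrays the median was 0.22, and it ranged from 0.01 to 0.40 when single arrays were left out. With no shift between arrays it was -0.19, against -0.32 over all genes. With the age of 21 weeks as a term no member was called either, against 0.00539% of all genes higher. By complex the difference of effects ran from -1.12 (Ndufa4l2) to 0.52 (Ndufb4) in complex I, from -0.13 (Sdhd) to 0.21 (Sdhc) in complex II, from -0.19 (Uqcrc1) to 0.48 (Uqcrq) in complex III, from -1.53 (Cox6b2) to 1.79 (Cox6a2) in complex IV and from -0.46 (Atp5b) to 0.44 (Atp5g2) in complex V. Ndufa4l2 and Cox6a2 were near background on several arrays, so their values are imprecise. For Ndufb3 it was 0.33 ± 0.207 without the 21-week arrays.

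At 0 h, no respiratory chain gene was called between KO and WT, against 1.82% of all genes higher and 0.259% lower by limma, 2.08% in all. At an unadjusted p under 0.05 there were 2 higher and 2 lower, given without the share of all genes. The median of the members was -0.08, against -0.03 over all genes, and 59 of 90 were below 0. The arrays of the genotypes did not overlap for 5 members higher and 5 lower in KO, against 16.9% and 14.8% of all genes. The median SE of a member's difference was 0.237, and the highest was 1.94, for Cox6a2. Medians by complex ran from -0.17 in complex V to -0.02 in complex II. Beside this, 10 of the 12 monocyte and macrophage markers were called higher in KO at 0 h and 9 of 12 at 3 h. The 7 tested of 8 erythroid markers were at 2.69 to 3.48 on the KO 0 h arrays and -1.33 to 1.11 on the WT 0 h arrays, with none called. The 7 tested dendritic cell markers were at 1.43 to 2.77 in KO and -0.30 to 0.30 in WT at 0 h, with 2 called higher at each time, and of 6 NK cell markers 1 was called higher at each time. The part of these markers in the members' values was not tested.

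Most isoforms with low signal had larger differences at 0 h, though Cox7a1 did not. Ndufa4l2 was at -9.04, -8.57 and -9.23 on the WT arrays, none well above background, and at -6.61, -6.83 and -3.08 on the KO arrays. The gene passed the filter on dim probes only through the KO 0 h group, so it had to be higher there, and no test is given. The KO mean was at least 4.26-fold higher with the 21-week array and at least 1.84-fold without it. Cox6b2 was at -3.76, -3.67 and -4.73 in WT and -3.29, -2.09 and -0.35 in KO, a difference of 2.15 ± 0.627 (0.13), with no overlap. Cox6a2 was at -1.86, -3.24 and 1.20 in KO, 2.72 ± 1.94 above WT (0.55). Cox4i2, the lung and hypoxia isoform of Cox4i1, had a difference of 1.55 (0.425). It was at -6.29, -6.48 and -7.20 in WT and at -6.04, -5.80 and -3.48 in KO, highest on the 21-week array. Cox7a1, also low, had a difference of -0.12 ± 0.202 (limma adjusted p = 0.8).

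Among the widely expressed members the differences at 0 h were smaller. Cox7a2l, which joins complexes III and IV in supercomplexes, was at 4.60, 4.66 and 4.63 in WT and 4.21, 4.31 and 3.80 in KO, a difference of -0.52 ± 0.230 (limma adjusted p = 0.313). The KO arrays were all lower. Complex II lay between -0.21 (Sdhb) and 0.09 (Sdhd). Uqcrh, the hinge subunit of complex III, had a difference of -0.43 (0.296), Atp5e one of -0.40, Ndufa13 one of -0.39 and Atp5b one of 0.39 (0.438).

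Without the 21-week arrays the genotype comparison at 0 h shifted down. The median of the members was then -0.30, against 0.01 over all genes, and 78 of 90 were below 0. Cox7a2l (-0.37 ± 0.0851, limma adjusted p = 0.044) and Ndufv3 (-0.69 ± 0.150, 0.037) were called lower, against 1.91% of all genes. The 1 member called higher, against 4.71% of all genes, was Ndufa4l2, from which nothing is read because of the filter. With the age of 21 weeks as a term the median was -0.27, Ndufv3 was called lower, against 0.868% of all genes, and Ndufa4l2 higher, against 3.23%. Cox7a2l was not called in that fit. The Ndufv3 call rests on the brightest of its 3 probes, described above. Medians were -0.30 in complex I, -0.05 in complex II, -0.34 in complex III, -0.35 in complex IV and -0.25 in complex V. The members' median ranged from -0.30 to 0.09 when single arrays were left out, the highest without KO 0 h array 1.

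**Figure D5:**
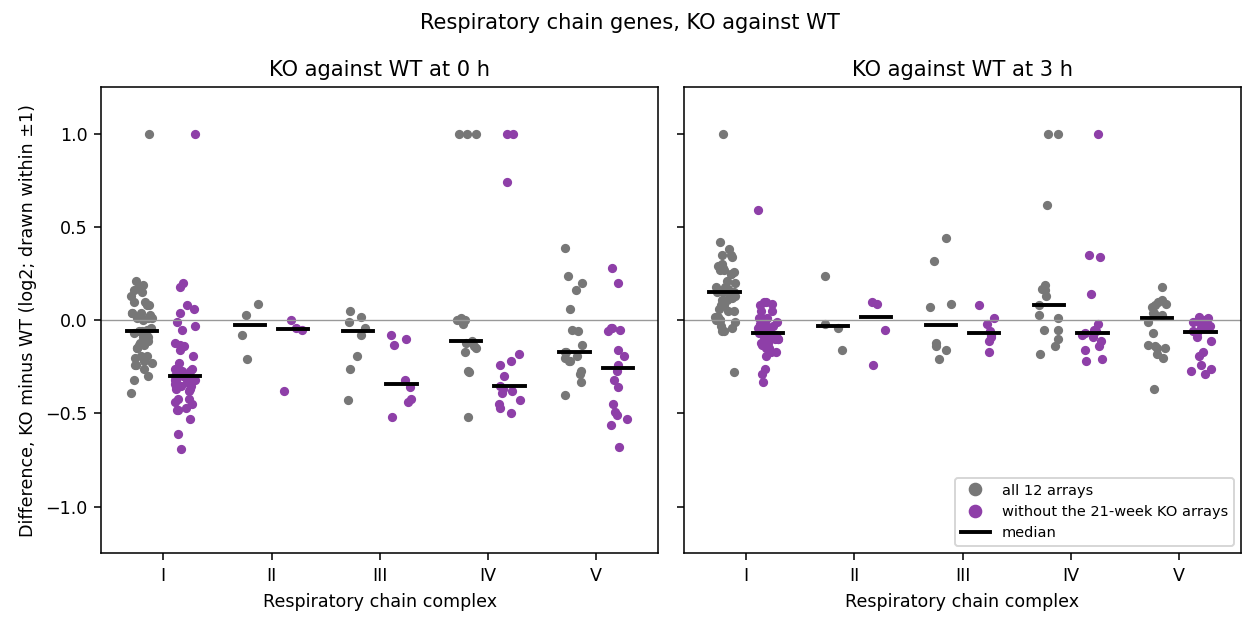
Difference between KO and WT (vertical axis, log2, drawn within ±1) for each respiratory chain gene, by complex, at 0 h (left) and 3 h (right), with all 12 arrays in grey and without the 21-week KO arrays in purple. Black bars mark medians. At 0 h the complex I median moves from -0.06 to -0.30 without those arrays, and at 3 h from 0.15 to -0.07.

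At 3 h, no member was called between KO and WT by limma, against 1.26% of all genes higher and 0.189% lower. With an unadjusted p under 0.05 there was 1 higher and 0 lower, given without the share of all genes. The median was 0.08, against 0.04 over all genes, but it was -0.13 with the percentile taken over all probes and -0.32 with no shift, where the medians of all genes were -0.17 and -0.36. Arrays did not overlap for 3 members higher and 4 lower, against 11.8% and 7.38% of all genes. In complex I, 39 of 45 members were above 0, with a median of 0.15. Without the 21-week arrays 68 of the 90 members were below 0 and the median was -0.07, and no member was called, against 1.39% of all genes higher and 0.588% lower. With the age of 21 weeks as a term the median was -0.08 and no member was called, against 1.53% of all genes higher and 0.367% lower. The direction of the median at 3 h thus turned with those arrays, and it ranged from -0.07 to 0.22 when single arrays were left out.

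Isoforms near background were again uneven at 3 h. Cox6a2 was at -7.64, -5.35 and 1.28 on the KO 3 h arrays, 2 of them well above background, and 1 of the 3 WT arrays given above was. Ndufa4l2 was at -8.78, -7.26 and -7.92 in WT and -7.51, -7.28 and -2.20 in KO, where only 1 array was well above background. The WT and KO arrays of Ndufa4l2 overlapped at this time. Atp5d (-0.37, 0.526) and Ndufaf7 (-0.28, 0.518) had the lowest differences of complexes V and I. In complex II the range was -0.16 (Sdhb) to 0.24 (Sdhc), and in complex III -0.21 (Uqcrc1) to 0.44 (Uqcrq).

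Genes that act beside these subunits were described from fixed lists. The 13 subunits encoded in mitochondrial DNA, which join the nuclear ones in complexes I, III, IV and V, had a median of 0.04 in WT activation and 0.26 in KO activation, where 12 of 13 were above 0. None was called by limma in either (0 of 13). With an unadjusted p under 0.05 there were 0 in WT and 4 higher in KO, given without the share of all genes. Their mean level was 0.02 to 0.09 on the WT 3 h arrays and 0.29 to 0.48 on the KO 3 h arrays, without overlap. The mean of all genes tested did not overlap on these arrays either, at -0.19 to -0.09 in WT and -0.03 to 0.21 in KO. Some of their probes were annotated to a nuclear copy on chromosome 1.

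In WT activation 16.6% of all genes tested fell and 13.3% rose, and in KO activation 9.79% fell and 7.38% rose. Of 8 further complex I assembly factors 5 fell and none rose, with a median of -0.80, and Dmac1 had a difference of -1.88. Of 31 assembly factors of complexes II to V 14 fell and 3 rose, with a median of -0.65. Lyrm7 (-1.71), which helps to insert the Rieske protein into complex III, and the complex IV factors Cmc1 (-1.54) and Cox15 (-0.99), the latter for heme a synthesis, were among those that fell. In KO 3 of 8 and 5 of 31 fell. Of 78 mitochondrial ribosome genes, whose products translate the mitochondrially encoded subunits, 22 fell and 3 rose in WT (median -0.42) and 7 fell in KO (median -0.34).

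The remaining lists held changes both ways in WT. Of 17 genes listed for electron carriers outside the complexes, 5 fell, among them Dhodh (-1.21), which feeds electrons from pyrimidine synthesis to ubiquinone. The 2 that rose were Gpd2 (0.91) and Coq8a (2.85), the latter a gene of ubiquinone synthesis and no carrier itself. Of 20 transcription regulators of respiratory genes 7 fell, among them Esrra (-0.84), and 3 rose, among them Gabpb1 (1.64), a partner of GABPA. Of 19 tricarboxylic acid cycle genes 3 fell and 2 rose (median -0.20), shares near those of all genes. Of 25 import genes 5 fell and 4 rose, among them the chaperone Hspa9 (0.88). Of 8 uncoupling and nucleotide exchange genes Ucp2 (-1.47) and Ucp3 (-1.44), which are neighbours in the genome, fell, and Slc25a3 (2.02), the phosphate carrier, rose. No gene of these lists was called between KO and WT at either time.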

How the data were processed

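RNA of 12 Treg samples was read on single-colour Agilent arrays with Feature Extraction. The file headers give its version as 10.7.3.1, and the submitters' processing notes give 11 and also name Partek. The deposited files of the authors hold background-subtracted intensity values, and a deposited series table holds log2 values per probe, used as an alternative. Here log2 intensity was taken minus the 75th percentile of each array over those 19799 probes that every one of the 12 arrays measured well above background, because on average 46.38% of probes were. No spot was saturated. The brightest eligible probe stood for a gene. limma 3.58.1 (R 4.3.3) fitted 4 group means with 8 residual degrees of freedom, two-sided, with Benjamini-Hochberg adjustment over 18545 genes and a threshold of 0.05. The code was tested on simulated data. Named genes were the called members (up to 10 in each direction), the extremes of each complex, defining subunits, isoform pairs and up to 3 called genes of each list. Called members beyond these were named after their values were seen, and 1 called member is counted but not named here. Members and lists were chosen with earlier results of these data known. An "at least" fold sets the mean of the bright group against, per array, the higher of the lowest signal among probes well above background and the dim probe's own. Alternatives were normexp, quantile, percentile and filter settings, the mean of probes, array weights, leaving out arrays, and, added after seeing the data, the age of 21 weeks as a term (7 residual degrees of freedom).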

Additional observations from a re-analysis of the deposited data

How the results depend on the processing

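None of the 23 called results of named members that were refitted reversed under the alternatives run. Members lower after activation numbered 24 in WT and 9 in KO. With no shift between arrays they were 15 and 22, with no filter on dim probes 13 and 3, with array quality weights 69 and 32, without the 21-week arrays 55 and 28, with the age of 21 weeks as a term, chosen after seeing the data, 51 and 32, and with only the arrays of the groups compared 64 and 0. In KO they were 18 with quantile normalization and 17 with the deposited table. Over all genes the share called lower moved as well. It was 16.6% in WT and 9.79% in KO in the main fit. It was 31.6% and 25.9% without the 21-week arrays, and 35.0% and 0.329% with only the arrays of the groups compared. The moves are therefore not read as particular to the members. Members higher in WT, 2, were 0 with no shift or no filter and 4 with weights, and in KO, 0, they were 1 with weights and 1 without the 21-week arrays. KO against WT at 0 h, with 0 called, gave 1 higher with no shift, 2 higher and 2 lower with weights, 1 higher and 2 lower without the 21-week arrays, and 1 higher and 1 lower with the age term. The 1 higher without those arrays and with the term was Ndufa4l2, which passed the filter on dim probes only through the KO 0 h arrays. With no shift the medians were -0.61 (KO activation), -0.32 (KO against WT at 3 h) and -0.19 (difference of effects). The cause of these moves was not tested.

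Leaving out single arrays gave 11 to 39 falls and 0 to 2 rises in WT, 3 to 29 falls and 0 to 1 rises in KO, and 0 to 1 members higher in KO at 0 h. The shares of all genes called in these fits are not set beside these counts. The medians ranged from -0.50 to -0.43 (WT activation), -0.55 to -0.14 (KO activation), -0.30 to 0.09 (0 h), -0.07 to 0.22 (3 h) and 0.01 to 0.40 (difference of effects). No paired analysis was possible because the labels give the arrays no shared numbers, and the age label ties only the 21-week KO arrays. With 3 arrays a group, precision is limited by their number, and isoforms near background are measured imprecisely.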
